A study of Mus musculus with 7 samples.

Results

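The 6 genes described here, Lypd8, Ang4, Retnlb, Slpi, Wfdc2 and Pigr, encode secreted or surface proteins that help to keep bacteria off the colon epithelium. They were chosen by name for that role, with earlier results of these data known. Their mouse gene identifiers were found among the 18036 genes listed in at least 1 library. All 6 were listed in all 7 libraries, and all 6 passed the filter on low values, with at least 1 RPKM (unique reads scaled to gene length and library total) in every library, the control included. The name "constitutive" for such proteins suited 5 of the 6 genes in the control colon, where they stood between 178 and 9779 RPKM. It did not suit Slpi, which stood at 3.50 RPKM there.

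RNA was taken from colon epithelium scraped off the muscle layer of female hCYP1A mice, a C57BL/6 line carrying human CYP1A genes, 6 weeks old. The control group was untreated. The DSS groups drank 1.5% dextran sulfate sodium, a polymer that injures the colon lining and causes colitis, for 5 days. The PhIP/DSS groups were first given 2 doses of 100 mg/kg PhIP, a carcinogen formed in cooked meat, 4 days apart, and started the same DSS course a week later. Colons were collected 1, 3 or 7 days after the DSS course ended, with colitis recorded at days 1 and 3 and partial colitis at day 7. Each of the 7 conditions was 1 library made from the pooled RNA of 3 mice, so a single library's value has no replicate. The p-values rest on how the difference between PhIP/DSS and DSS varied over the days, with 2 residual degrees of freedom. They do not measure the spread between pools of 1 condition. A true arm difference that changes with day counts as spread there. In such bulk samples, fewer cells of a type and less RNA per cell cannot be told apart.

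The colon surface is guarded in layers. Goblet cells secrete the mucus gel and, with it, antibacterial proteins such as the resistin-like protein encoded by Retnlb. Colonocytes coat the outer surface with Lypd8, a glycoprotein that binds the flagella of motile bacteria. Epithelial cells also carry the polymeric immunoglobulin receptor Pigr, which takes dimeric IgA from the tissue side, moves it through the cell and releases it into the lumen as secretory IgA. Ang4 is a microbicidal ribonuclease of the angiogenin group. Slpi and Wfdc2 are small proteins with whey acidic protein (WAP) domains. Slpi inhibits neutrophil elastase and related serine proteases and has antibacterial activity, and antiprotease and antibacterial activity has been described for human WFDC2.

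The upstream sequences of the 3 genes that were at least 2-fold from their control levels in all 6 treated libraries are shown because Slpi and Wfdc2, of 1 gene family, stood on opposite sides of the control. Each is the 250 bases before the gene's start in RefSeq, on the strand of the gene, read 5′ to 3′ in GRCm38.p6. Ang4 lies at chr14:51773591-51773840, Slpi at chr2:164356508-164356757 (both minus strand) and Wfdc2 at chr2:164562465-164562714 (plus strand). Capitals mark the matches to 6 searched motifs.
Ang4: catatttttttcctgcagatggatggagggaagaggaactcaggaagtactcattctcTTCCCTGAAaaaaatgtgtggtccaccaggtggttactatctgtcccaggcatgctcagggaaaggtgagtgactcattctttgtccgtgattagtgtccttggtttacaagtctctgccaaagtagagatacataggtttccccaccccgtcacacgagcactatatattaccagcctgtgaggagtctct
Slpi: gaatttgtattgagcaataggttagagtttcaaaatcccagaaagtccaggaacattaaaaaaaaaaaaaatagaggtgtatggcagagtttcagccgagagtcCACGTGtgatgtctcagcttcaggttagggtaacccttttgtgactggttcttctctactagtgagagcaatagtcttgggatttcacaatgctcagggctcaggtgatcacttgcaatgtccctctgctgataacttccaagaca
Wfdc2: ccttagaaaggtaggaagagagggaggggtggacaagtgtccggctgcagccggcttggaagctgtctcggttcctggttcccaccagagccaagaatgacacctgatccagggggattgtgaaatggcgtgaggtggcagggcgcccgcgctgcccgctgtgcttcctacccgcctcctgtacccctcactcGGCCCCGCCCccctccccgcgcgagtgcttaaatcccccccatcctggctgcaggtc
The motifs, searched on both strands, were an NF-kappaB type motif, the interferon gamma activated TTCNNNGAA, a STAT6 type motif, the interferon-stimulated response element, the E-box CACGTG and the TATAAA box. The Ang4 window held TTCNNNGAA, starting 192 bases before the start, a match found in 7.02% of 32851 promoters. The Slpi window held CACGTG, starting 146 bases before the start, found in 6.02% of promoters. The Wfdc2 window held the NF-kappaB type motif on its complementary strand, starting 57 bases before the start, found in 45.8% of promoters. The Slpi and Wfdc2 windows shared no motif of the 6. A match describes the letters only.

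Lypd8 had the highest RPKM of any gene in every library. It stood at 9779 RPKM in the control. In the DSS libraries it stood at 11748, 13825 and 17798 RPKM on days 1, 3 and 7, and in the PhIP/DSS libraries at 9596, 15512 and 19363 RPKM. In both arms the value was larger at each later day, and 5 of the 6 treated libraries lay above the control, with PhIP/DSS day 1 just below it. Its reads, scaled by TMM, a library scaling factor, were 1.87 times the control on day 7 of DSS (95% interval 1.86 to 1.89, counting error only) and 2.00 times on day 7 of PhIP/DSS (1.98 to 2.01). The fitted log2 fold change of day 7 against day 1 was 0.83 (SE 0.19), with an edgeR adjusted p of 0.102. No neighbouring pair in its order of levels lay within counting error. Lypd8 (chr11:58379032-58390541, plus strand, 7 exons) alone held 1.10% of all unique reads in the control. On day 7 it held 2.00% (DSS) and 2.17% (PhIP/DSS). The 6 genes together, Lypd8 included, held 1.84% in the control, and 2.77% and 3.04% on day 7. Markers of surface colonocytes, the cells that make Lypd8, summed to 5648 RPKM in the control. The sums were 6456 (DSS) and 6786 (PhIP/DSS) RPKM on day 1, and 4788 and 3863 RPKM on day 7. Single markers were split: of 11 tested, 5 had a fitted day 7 value above the control and 6 below. Their part in the result was not tested.

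**Figure D1:**
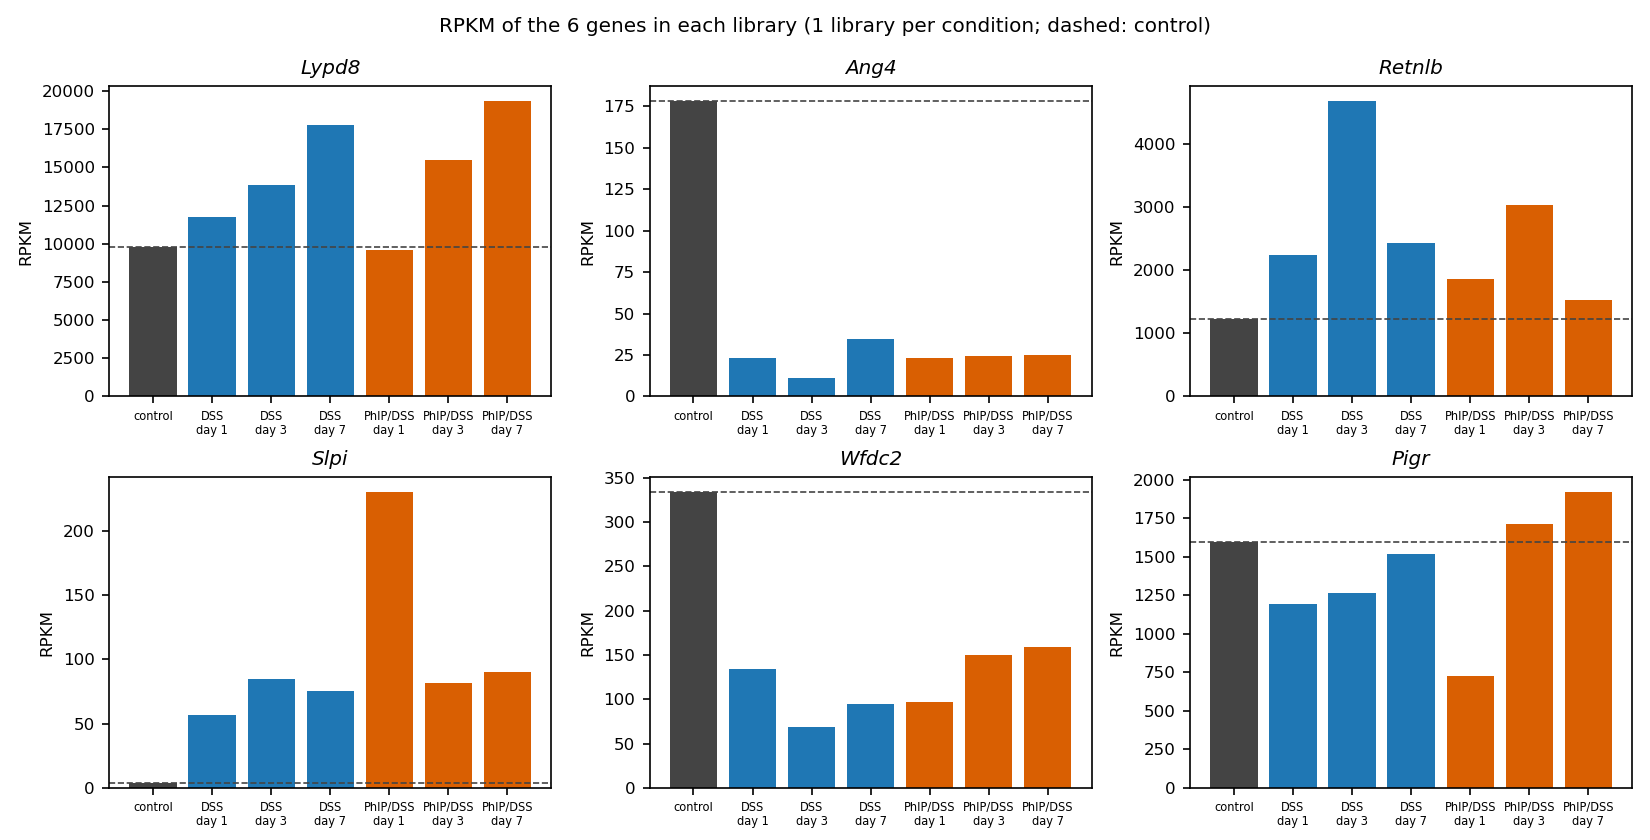
RPKM of the 6 genes in each of the 7 libraries, with 1 bar per library and a dashed line at the control; every vertical axis starts at 0 and has its own scale. Ang4 and Wfdc2 are below the dashed line in all 6 treated libraries, Slpi and Retnlb are above it in all 6, and Lypd8 reaches 17798 and 19363 RPKM on day 7.

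Ang4 was far lower in every treated library than in the control. Its level was 178 RPKM (950 reads) in the control. It was 22.9, 11.1 and 34.7 RPKM on days 1, 3 and 7 of DSS (139, 68 and 199 reads) and 23.3, 24.6 and 25.0 RPKM in PhIP/DSS (138, 144 and 146 reads). No treated library came near the control. The scaled reads were between 5.00-fold (DSS day 7) and 15.7-fold (DSS day 3) lower than in the control. The fitted log2 fold change was -2.95 (SE 0.44) on day 1, -3.32 (SE 0.45) on day 3 and -2.53 (SE 0.44) on day 7, with edgeR adjusted p of 0.0710, 0.132 and 0.125. DESeq2 called Ang4 on all 3 days. Its adjusted p on day 1 was 7.69e-06, within a range of 7.69e-06 to 0.216 over 12 alternatives. In the order of levels, PhIP/DSS day 7, PhIP/DSS day 3, PhIP/DSS day 1 and DSS day 1 lay each within counting error of the next. Ang4 (chr14:51763892-51773590, minus strand, 2 exons) shares 31 of its 660 windows of 50 bases (4.70%) with its relatives Ang2 and Ang5, so its counts are uncertain to the extent that reads could not be assigned uniquely. Values of Ang2, Ang3, Ang5 and Ang6 are not analysed here. Nearby ribonuclease genes showed smaller differences, with ratios to the control of 0.557 to 0.817 for Rnase4 and 0.506 to 0.736 for Ang, the conserved angiogenin.

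Retnlb was above the control in every treated library, most of all on day 3. The level was 1227 RPKM in the control. It was 2236, 4683 and 2426 RPKM on days 1, 3 and 7 of DSS and 1864, 3033 and 1525 RPKM in PhIP/DSS. On each day the PhIP/DSS library was lower than the DSS library, at 0.830, 0.641 and 0.616 times its scaled reads on days 1, 3 and 7. The fitted log2 fold change against the control was 0.73 (SE 0.19) on day 1, 1.64 (SE 0.20) on day 3 and 0.68 (SE 0.19) on day 7, with edgeR adjusted p of 0.0872, 0.114 and 0.209. The fitted log2 difference of PhIP/DSS from DSS was -0.54 (SE 0.12), lower in 3 of 3 days, with an unadjusted p of 0.00799 and an adjusted p of 0.998 by edgeR. DESeq2 gave it an adjusted p of 0.00987, the smallest of a range of 0.00987 to 1 over 13 alternatives. Summed markers of goblet cells, which make Retnlb, were 12640 RPKM in the control. The sums were 9290 (DSS) and 8100 (PhIP/DSS) RPKM on day 1, 16804 and 15576 RPKM on day 3, and 14795 and 13347 RPKM on day 7. Single goblet markers differed: on day 1 Agr2, which folds mucins, was above its control level in both arms (1496 and 1299 RPKM against 943). Of 9 goblet markers tested, 5 had a fitted day 3 value above the control and 4 below. Among the latter, Clca1 had 1508 (DSS) and 1816 (PhIP/DSS) RPKM on day 3 against 2374 in the control. The part of goblet cells in the Retnlb level was not tested. Retnlb (chr16:48816856-48818892, plus strand, 4 exons) lies 53.7 kb from Retnlg, a resistin-like gene of neutrophils. Retnlg had 0 reads in the control and 1.36 to 79.3 RPKM in the treated libraries, highest on DSS day 3. Retnla, 23.7 kb away, had 1 read in the control (0.218 RPKM) and 0 reads in all 6 treated libraries.

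**Figure D2:**
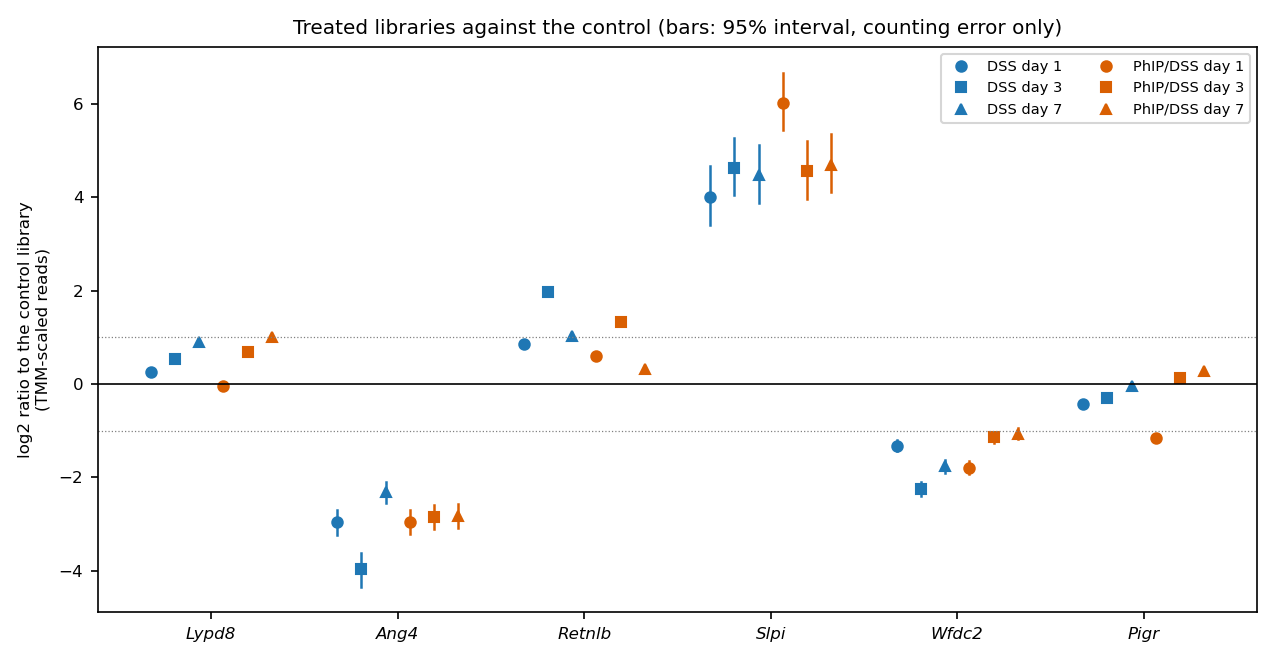
Log2 ratio of TMM-scaled reads in each treated library to the control, for each of the 6 genes, with bars for the 95% interval (counting error only) and dotted lines at 2-fold. The points of Slpi lie above the upper dotted line and those of Ang4 and Wfdc2 below the lower one in all 6 libraries. The bar of Wfdc2 in PhIP/DSS day 7, 0.442 to 0.518 times the control, crosses that lower line. The Slpi point of PhIP/DSS day 1, at 65.1 times the control, stands apart from the other 5.

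Slpi was the gene with the widest range of levels. It had 3.50 RPKM (24 reads) in the control. It had 56.4, 84.6 and 75.6 RPKM on days 1, 3 and 7 of DSS (440, 664 and 558 reads) and 229.8, 81.4 and 90.4 RPKM in PhIP/DSS (1754, 613 and 679 reads). Every treated library was far above the control, and PhIP/DSS day 1 was 4.06 times its DSS counterpart in scaled reads (95% interval 3.65 to 4.51, counting error only). On days 3 and 7 the same ratio was 0.952 and 1.17. Against the control the scaled reads were 16.045 times higher on DSS day 1 (10.6 to 25.3, an interval set by the 24 control reads) and 65.1 times higher on PhIP/DSS day 1 (43.6 to 101.9). The fitted log2 fold change was 5.16 (SE 0.93) on day 1, 4.63 (SE 0.91) on day 3 and 4.60 (SE 0.91) on day 7, with edgeR adjusted p of 0.0711, 0.156 and 0.142. Without PhIP/DSS day 1 the day 1 value was 4.04, and without DSS day 1 it was 5.98. DESeq2 called Slpi on all 3 days, with an adjusted p of 5.71e-06 on day 1, within a range of 5.71e-06 to 0.216 over 12 alternatives. The levels of PhIP/DSS day 7, DSS day 3, PhIP/DSS day 3 and DSS day 7 lay, in this order, each within counting error of the next. Slpi (chr2:164354070-164356507, minus strand, 4 exons) overlaps the microRNA gene Mir7678 on the same strand.

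Neutrophils also make Slpi, and their markers differed widely between libraries. A list of 10 neutrophil markers, of which 8 were listed in any library, summed to 2.92 RPKM in the control, with Retnlg, Mpo and Ngp at 0 reads. It summed to 35.0, 1134 and 450 RPKM on days 1, 3 and 7 of DSS, and to 777, 31.1 and 65.8 RPKM in PhIP/DSS. DSS day 3 and PhIP/DSS day 3 had nearly the same Slpi level, with a ratio of 1.04, while their neutrophil marker sums differed 36.4-fold. Macrophage markers summed to 15.5 RPKM in the control and 35.0 to 150.2 RPKM in the treated libraries, and fibroblast markers to 6.66 and 31.8 to 151.9 RPKM, both highest in PhIP/DSS day 1, where Slpi was highest too. The part of these cells in the Slpi level was not tested.

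**Figure D3:**
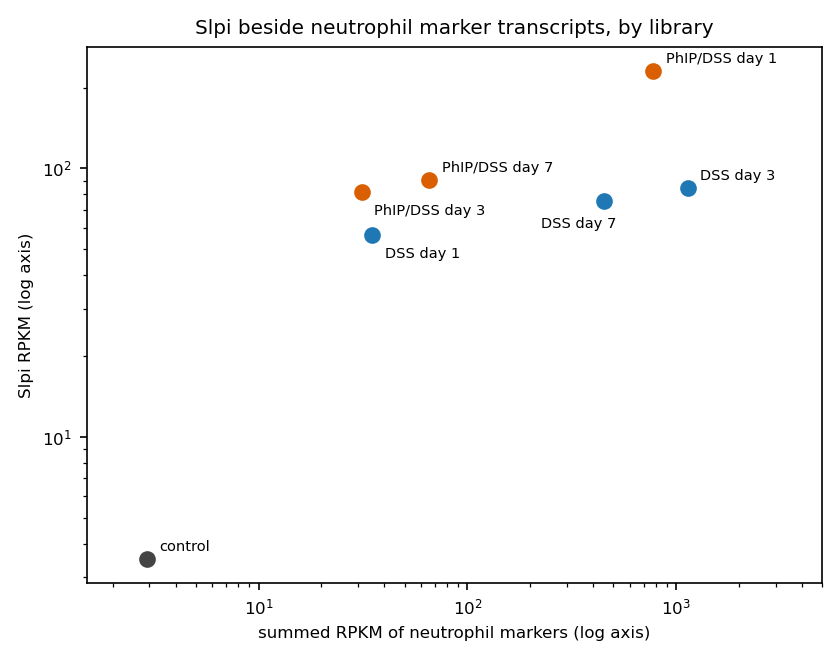
Slpi RPKM against the summed RPKM of the neutrophil markers, both on log axes, with 1 point per library. PhIP/DSS day 3 and DSS day 3 lie at nearly the same height, at 81.4 and 84.6 RPKM of Slpi, with neutrophil marker sums of 31.1 and 1134 RPKM.

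Wfdc2 was below the control in every treated library. It stood at 334 RPKM in the control. It stood at 134, 68.4 and 95.3 RPKM on days 1, 3 and 7 of DSS and at 97.0, 149.6 and 158.5 RPKM in PhIP/DSS. Of all genes tested, 28.3% also lay below the single control library in all 6 treated libraries. The DSS library was the higher of the arms on day 1 and the lower on days 3 and 7. The scaled reads were 0.209 (DSS day 3) to 0.479 (PhIP/DSS day 7) times the control. The 95% interval of the latter, 0.442 to 0.518 (counting error only), crossed 2-fold. The fitted log2 fold change was -1.49 (SE 0.46) on day 1, -1.66 (SE 0.45) on day 3 and -1.41 (SE 0.45) on day 7, with edgeR adjusted p of 0.109, 0.197 and 0.248. Leaving out PhIP/DSS day 1 gave -0.87 on day 1, and leaving out DSS day 1 gave -2.25. The difference of PhIP/DSS from DSS was 0.45 (SE 0.32), with an adjusted p of 0.998 by edgeR; without either day 1 library it was 0.91 on the log2 scale. Wfdc2 (chr2:164562715-164568510, plus strand, 5 exons) lies 206 kb from Slpi in a cluster of WAP-domain genes.

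The 4 expressed genes between Slpi and Wfdc2 stood much nearer to their control levels. Their RPKM ratios to the control ranged from 0.599 to 0.858 for Sdc4, the heparan sulfate proteoglycan syndecan-4, 1.00 to 1.29 for Sys1, 1.03 to 1.33 for Dbndd2 and 0.816 to 1.02 for Pigt, a subunit of the enzyme that attaches GPI anchors. The ratios of Slpi were 16.1 to 65.6 and those of Wfdc2 0.205 to 0.475. A wider window, which holds Slpi and Wfdc2 and reaches past both, had 21 protein-coding genes. Of these, 15 were under 1 RPKM in all libraries.

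**Figure D4:**
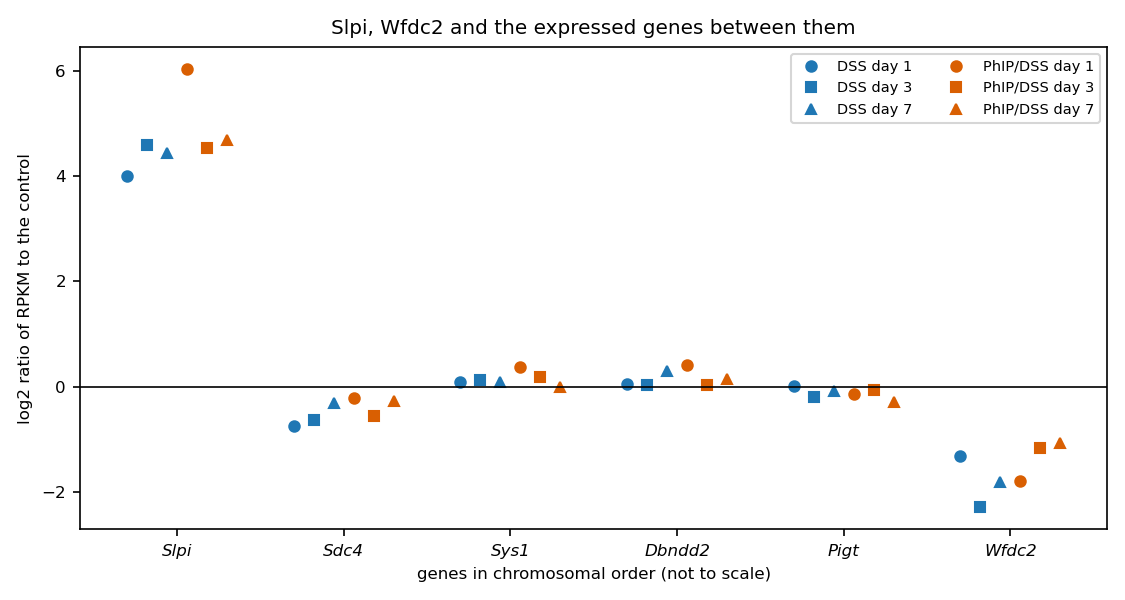
Log2 ratio of RPKM to the control in the 6 treated libraries for Slpi, Wfdc2 and the 4 expressed genes between them, in chromosomal order and not to scale. Slpi is 16.1 to 65.6 times the control and Wfdc2 0.205 to 0.475 times, while the genes between them lie from 0.599 to 1.33 times.

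Other WAP-domain genes were at low levels in the control. Wfdc18 was at 1.15 RPKM in the control and 12.3 to 43.2 RPKM in the treated libraries, and Wfdc17 at 0.269 and 2.60 to 56.5 RPKM, highest in PhIP/DSS day 1 as Slpi was. Serine proteases of the kind that Slpi inhibits differed in level. Ctsg, neutrophil cathepsin G, had reads in 1 library only, at 0.119 RPKM, and Prtn3, proteinase 3, did not pass 0.238 RPKM in any library. The mast cell protease Mcpt1 stood at 10.7 RPKM in the control and 8.42 to 25.0 RPKM in the treated libraries. Of other mast cell proteases, Mcpt2 stood at 4.03 and 4.12 to 14.8 RPKM, and Cma1 at 4.81 and 0.944 to 5.03 RPKM.

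Pigr was lowest on day 1 and at or above its control level later in the PhIP/DSS arm. It stood at 1598 RPKM in the control. It stood at 1195, 1266 and 1514 RPKM on days 1, 3 and 7 of DSS and at 723, 1714 and 1918 RPKM in PhIP/DSS. Of the treated libraries 4 lay below the control and 2 above, and PhIP/DSS day 1 was the only one more than 2-fold below it, at 0.449 times in scaled reads. With reads scaled to 8 epithelial markers, PhIP/DSS day 3 lay below the control too, at -0.04 on the log2 scale. Fat cell markers summed to 125.8 RPKM in PhIP/DSS day 1 and to 2.47 to 15.98 RPKM elsewhere; their part was not tested, and the epithelial markers summed to 10001 RPKM there against 8672 in the control. The fitted log2 fold change against the control was -0.74 (SE 0.38) on day 1, -0.08 (SE 0.39) on day 3 and 0.13 (SE 0.39) on day 7, with edgeR adjusted p of 0.240, 0.925 and 0.883. Day 7 against day 1 gave 0.87 (SE 0.32), with an adjusted p of 0.183. The day 1 value was -1.34 without DSS day 1 (edgeR adjusted p 0.000845, over a range of 0.000845 to 0.400 in 12 alternatives) and -0.24 without PhIP/DSS day 1. Day 7 against day 1 ranged from 0.36 to 1.46 over 13 alternatives. Pigr (chr1:130826684-130852249, plus strand, 11 exons) shares 66 of 3800 windows of 50 bases (1.74%) with other genes.

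Some genes of the IgA system that Pigr serves are given beside it; none was called by edgeR. Jchain, the joining chain of dimeric IgA that Pigr binds, stood at 9.39 RPKM in the control, 7.81, 15.1 and 34.3 RPKM in DSS and 26.3, 16.5 and 53.5 RPKM in PhIP/DSS, with both day 7 values above the other libraries. Ccl28, a chemokine that draws IgA plasma cells to mucosa, stood at 48.2 RPKM in the control and was lowest, as Pigr was, in PhIP/DSS day 1 at 30.0 RPKM and highest in PhIP/DSS day 7 at 74.7 RPKM. Fcgrt, the neonatal Fc receptor, which carries IgG, stood at 24.4 RPKM in untreated mice and had 53.0 and 43.8 RPKM on day 7. Markers of B and plasma cells summed to 26.0 RPKM in the control and to 45.6 and 89.1 RPKM on day 7; their part was not tested. The heavy and light chain genes Igha and Igkc are not analysed here.

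No gene passed an adjusted p of 0.05 by edgeR's quasi-likelihood test in any of the 5 comparisons: 0% of 12061 genes tested, and 0 of the 6 genes described here. Each comparison of a day with the control rests on the same single control library. An unadjusted p under 0.05 was reached by 4 of the 6 on day 1 against 32.6% of all genes, 4 on day 3 against 19.0%, and 5 on day 7 against 17.2%. It was reached by 2 for day 7 against day 1, beside 26.3% of all genes, and by 1 for PhIP/DSS against DSS, beside 3.66%. The 6 genes were chosen with earlier results of these data known, so the shares beside them are no test of the 6 as a set. DESeq2 called 4, 5, 4, 1 and 1 of the 6 in the same order of comparisons, among 1243, 438, 459, 693 and 13 of all genes. With edgeR but without DSS day 1, 5, 5, 5, 4 and 2 of the 6 were called, among 4280, 2142, 1896, 2986 and 282 of all genes. Without PhIP/DSS day 1 it was 3, 5, 5, 0 and 2 of the 6, among 1495, 2271, 2010, 786 and 324 of all genes. The counts by library are a description: 1 gene, Slpi, was at least 2-fold above the control in all 6 treated libraries, as were 3.69% of all genes tested. Ang4 and Wfdc2 were at least 2-fold below in all 6, as were 1.24% of all genes. For Wfdc2 in PhIP/DSS day 7 the interval for counting error crossed 2-fold. Retnlb and Slpi were above the control in all 6 at any size (26.6% of all genes), and Ang4 and Wfdc2 below (28.3%).

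**Figure D5:**
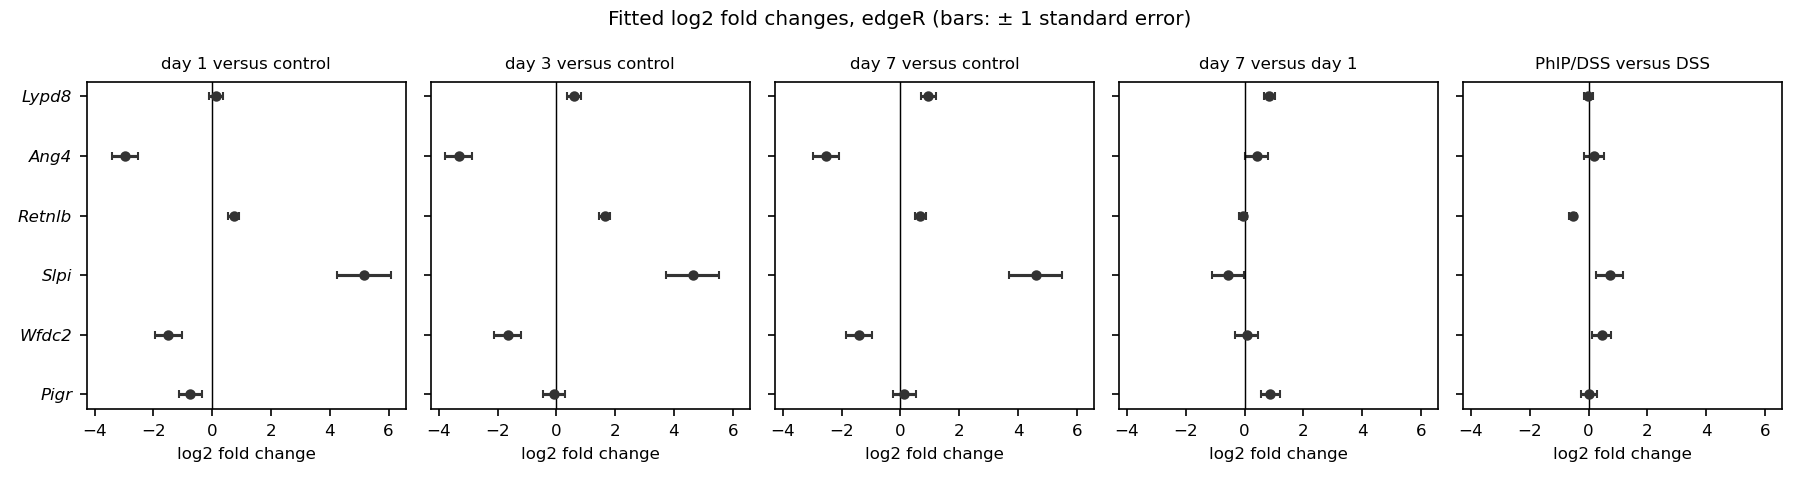
Fitted edgeR log2 fold changes of the 6 genes in the 5 comparisons, with bars of 1 standard error. Against the control, Slpi stands at 5.16, 4.63 and 4.60 and Ang4 at -2.95, -3.32 and -2.53 on days 1, 3 and 7; none passed an adjusted p of 0.05.

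Related gene lists give the surroundings of the 6 genes. All 12 genes of the mucus layer list were above 1 RPKM in the control. On day 1, 11 of the 12 had a fitted value below the control, with a median log2 fold change of -0.73, where the median over all genes tested was 0.01. On day 3 it was 5 of 12 and on day 7 it was 6 of 12, with medians of 0.38 and 0.08; none was called. Clca1, a goblet cell protease that acts on the mucus gel, had 2374 RPKM in the control library and 765 (DSS) and 564 (PhIP/DSS) RPKM on day 1. All 10 genes of the goblet fate list had a fitted day 1 value, the mean of both arms, below the control, with a median of -0.52, where 5957 of the 12061 genes tested were lower. In the DSS day 1 library alone, Spdef (43.2 RPKM against 40.5) and Creb3l4 (19.1 against 17.4) were above the control. Ly6/uPAR genes, the family of Lypd8, included several with far larger relative differences at lower levels. Ly6a stood at 196 RPKM in the control and 618 to 1079 RPKM in the treated libraries. Ly6d stood at 4.32 and 103 to 244 RPKM.

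Receptors and regulators of the cytokine signals that act on colon antibacterial genes were read from lists of cytokine and NF-kappaB genes. Only some of their genes are given. The median fitted log2 fold change on day 1 was 0.06 for the cytokine list and 0.30 for the NF-kappaB list. Over all genes tested it was 0.01. On day 7 these medians were 0.45, 0.44 and -0.01. Il4ra, the receptor chain for interleukin 4 and interleukin 13, which induce Retnlb, stood at 5.66 RPKM in the control and 20.2 to 35.0 RPKM in the treated libraries. From the same list, Il13ra1 stood at 57.9 RPKM in the control and 59.1 to 100.2 RPKM in the treated libraries. Stat6 stood at 34.0 and 29.5 to 34.7 RPKM. The genes Il4 and Il13 are not analysed here. Il22ra1, the epithelial receptor chain for interleukin 22, stood at 41.0 RPKM in untreated mice. It had 26.9, 35.1 and 48.1 RPKM on days 1, 3 and 7 of DSS and 22.9, 37.5 and 44.6 RPKM in PhIP/DSS. Nfkbiz, an inducible nuclear regulator of NF-kappaB, stood at 12.1 RPKM in the control and 25.5 to 56.8 RPKM in the treated libraries.

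The genes whose levels across the 7 libraries were most like each of the 6 were ranked by Pearson's r. It was taken on log2(TMM-scaled RPKM + 0.1) among 6147 genes with a mean of at least 10 RPKM. The r values are descriptions over 7 libraries that include the control. They do not measure the size of a difference. Kctd5, the gene most like Slpi, stood at 28.4 RPKM in the control and 52.3 RPKM in PhIP/DSS day 1. Slpi stood at 3.50 and 229.8 RPKM there. For Lypd8, Lrmp (0.985) and Aim2 (0.984) were among the most alike. Ang4 was most like Mep1a (0.965), Tob2 (0.963) and Abcb1a (0.962), and Wfdc2 most like Gsdmc3 (0.991), Ccnd2 (0.987) and Gsdmc2 (0.978). Retnlb was most like Vamp7 (0.968), Ampd3 (0.961) and Ncoa5 (0.959). Slpi was most like Kctd5 (0.991), S100a10 (0.990) and Skp1 (0.987), and Pigr most like Ak3 (0.996), Supt20 (0.986) and Trappc10 (0.985).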

How the data were processed

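Poly(A) RNA of 7 libraries was sequenced on an Illumina HiSeq instrument, per the labels' protocols. Per the file headers, the authors' deposited tables hold a count of unique reads for each gene, the RPKM made from it and the percent of the gene's length covered by reads. The submitters' processing notes name mm10 and FastQC; what aligner, counting tool, annotation and strand setting were used was not given in the sources used. Genes missing from a library's table were entered as 0 reads. Libraries held 7664276 to 8781886 reads and 15849 to 16134 genes. Symbols and positions came from RefSeq for GRCm38.p6 and matched 17983 of 18036 genes.

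A gene was tested when 2 or more libraries reached 1 RPKM, which left 12061 genes. Their counts were analysed by the quasi-likelihood test of edgeR 4.0.16 (R 4.3.3, TMM scaling), with p-values adjusted over all of them by Benjamini-Hochberg and 0.05 as the threshold. The model held levels for the control and each day plus a PhIP term, with 2 residual degrees of freedom, and a day's value is the mean of both arms. The control was assumed to vary like the treated libraries. The biological coefficient of variation was 23.7%. DESeq2 1.42.0 and limma 3.58.1, on log2(RPKM + a pseudocount of 1 or 0.1), were alternatives, with no filter, no PhIP or day term and each library left out. The steps were tested on simulated data. Intervals of ratios are exact 95% intervals and cover counting error only. The genes and lists were chosen with earlier results of these data known. The genes named are the 6 members, genes of the lists, genes that overlap or lie near a member, and the 3 genes most like each member, of which 1 is not reported here.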

Additional observations from a re-analysis of the deposited data

How the results depend on the processing

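No paired analysis was possible because each condition has 1 library, so the groups share fewer than 2 replicate numbers; the arms were compared within days by the model itself. The called counts depended on the settings, given here first for days 1, 3 and 7 against the control, then for day 7 against day 1, then for the PhIP term. By edgeR 0 of the 6 genes and 0 of all genes were called in each. DESeq2 called 4, 5, 4, 1 and 1 of the 6 and 1243, 438, 459, 693 and 13 of all genes. With no filter 6, 3 and 29 genes were called on days 1, 3 and 7. Limma with a pseudocount of 1 called 2 genes on day 3 and 2 on day 7, and with 0.1 it called 6, 16 and 42. With no PhIP term 2 of the 6 were called on day 1, and 1305, 27, 59 and 57 genes in the first 4 comparisons. With 1 library left out, the ranges were 0 to 5, 0 to 5, 0 to 5, 0 to 4 and 0 to 2 of the 6, and 0 to 4280, 0 to 2271, 0 to 2010, 0 to 2986 and 0 to 324 of all genes; the highest came without a day 1 library of either arm. Leaving out the control gives no value for the comparisons with it. The causes were not tested.

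Slpi, Ang4, Retnlb and Wfdc2 kept their direction against the control under all 12 alternatives on all 3 days. With a library left out, these log2 values reversed. On day 1 against the control Lypd8 ranged from -0.10 (DSS day 1 left out) to 0.32. Pigr ranged from -0.41 to 0.22 (DSS day 3 left out) on day 3 and from -0.11 (PhIP/DSS day 7 left out) to 0.35 on day 7. For day 7 against day 1, Ang4 ranged from -0.16 (DSS day 7 left out) to 0.89, Retnlb from -0.25 to 0.15, with 0.07 between, Slpi ranged from -1.40 to 0.55 and Wfdc2 from -0.55 to 0.83, with -0.10 between. The far values of Retnlb, Slpi and Wfdc2 came with PhIP/DSS day 1 left out, and 0.07 and -0.10 with PhIP/DSS day 7 left out. For PhIP/DSS against DSS, Pigr was -0.0021 with no filter, -0.21 with either day 3 library left out, -0.16 with either day 7 library left out and at most 0.37. There Lypd8 was 0.018 with no day terms and 0.12 with either day 1 library left out, and Ang4 ranged from -0.25 (DSS day 3 left out; -0.24 with PhIP/DSS day 3 left out) to 0.56. With epithelial scaling Pigr on PhIP/DSS day 3 was -0.036 against the control. Slpi rests on 24 reads in the control, which limits the precision of its ratios.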

Other observations

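Among other antibacterial genes of the colon, Mptx1, a pentraxin of the mucosa, had 1804 RPKM in the control library, against 6.13, 1.70 and 13.3 RPKM on days 1, 3 and 7 of DSS and 5.11, 59.1 and 132 RPKM in PhIP/DSS. It was lowest on day 3 in DSS and highest of the treated libraries on day 7 of PhIP/DSS. Pglyrp1, which binds bacterial peptidoglycan, had 310 RPKM in the control library and 809 to 1011 RPKM in the treated libraries.

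The reads of Slpi covered 72.2% to 73.9% of its stated length in the treated libraries, from 440 to 1754 reads, and 63.9% in the control. Those of Ang4 covered 86.9% to 94.2% from 68 to 199 reads. The cause of the uncovered part of Slpi was not tested.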
